A study of Mus musculus with 6 samples.

Results

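The genes described here are 8 members of the dual-specificity phosphatase (Dusp) and Sprouty (Spry) families, Dusp1, Dusp2, Dusp4, Dusp5, Dusp6, Dusp10, Spry1 and Spry2, out of the 27998 genes listed for each library. They were found by symbol, and all 8 were listed. The members were chosen by their level differences between organs in these same libraries, so those differences are given as a description, with no p-value for any member. The libraries hold single-cell RNA of invariant natural killer T cells (iNKT), T cells whose receptor binds lipids held by CD1d, taken out of the liver, the spleen and the lymph nodes of wild type (WT) C57BL/6 mice aged 5 weeks. Each organ has 2 libraries. All groups share the same strain, genotype, age and sort, in which CD8+ and B220+ cells were depleted and cells binding an antibody to TCR-β and the CD1d tetramer were collected. The labels name no treatment, sex or batch and no number of mice per library, so the spread between the libraries of an organ may be technical in part.

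Dual-specificity phosphatases of the MAP kinase phosphatase group remove phosphate from the threonine and tyrosine of activated ERK, JNK and p38 kinases and so end their signal. Dusp1, Dusp2, Dusp4 and Dusp5 encode nuclear enzymes that are made rapidly after a stimulus, Dusp6 encodes a cytoplasmic enzyme with a preference for ERK, and Dusp10 encodes one that acts mainly on JNK and p38. Sprouty proteins are induced by receptor signalling and restrain the step from Ras to RAF and ERK. In T cells the antigen receptor activates these kinases, and several of the phosphatases are themselves transcribed in response.

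Upstream sequence was read for 7 of the 8 members from RefSeq (build GRCm38.p6), as the 250 bases before the annotated start, all in the 5′ to 3′ direction of the gene. Dusp4 had no entry. The RefSeq start of Dusp1, Dusp5 and Dusp10 lies inside the GENCODE gene span given for each gene below, since those spans also cover transcripts that start further upstream. Those of Dusp1, Dusp5 and Spry2, genes with their highest level in lymph node, and that of Dusp6, with the reverse order, are shown for comparison. Capitals mark every match, on either strand, to the cyclic AMP response element (CRE) core TGACG or the full CRE TGACGTCA, to the AP-1 site TGANTCA, or to the CArG box bound by serum response factor. The positions are chr17:26508473-26508722, minus strand, for Dusp1, chr19:53528895-53529144, plus strand, for Dusp5, chr10:99262981-99263230, plus strand, for Dusp6 and chr14:105896820-105897069, minus strand, for Spry2.
Dusp1: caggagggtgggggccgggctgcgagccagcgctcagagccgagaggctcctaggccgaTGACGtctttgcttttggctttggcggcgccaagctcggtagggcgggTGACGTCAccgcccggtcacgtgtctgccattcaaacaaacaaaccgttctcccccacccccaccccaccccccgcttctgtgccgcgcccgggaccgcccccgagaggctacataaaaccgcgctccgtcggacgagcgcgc
Dusp5: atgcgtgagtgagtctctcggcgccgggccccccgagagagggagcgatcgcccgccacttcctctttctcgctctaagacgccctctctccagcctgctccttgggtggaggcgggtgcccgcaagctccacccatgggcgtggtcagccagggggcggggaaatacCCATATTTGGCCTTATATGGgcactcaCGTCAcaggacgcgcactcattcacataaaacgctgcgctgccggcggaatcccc
Dusp6: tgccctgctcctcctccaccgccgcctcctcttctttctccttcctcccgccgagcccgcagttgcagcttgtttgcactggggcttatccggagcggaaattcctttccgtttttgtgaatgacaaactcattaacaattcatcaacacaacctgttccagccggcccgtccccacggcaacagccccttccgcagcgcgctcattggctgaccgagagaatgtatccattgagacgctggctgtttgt
Spry2: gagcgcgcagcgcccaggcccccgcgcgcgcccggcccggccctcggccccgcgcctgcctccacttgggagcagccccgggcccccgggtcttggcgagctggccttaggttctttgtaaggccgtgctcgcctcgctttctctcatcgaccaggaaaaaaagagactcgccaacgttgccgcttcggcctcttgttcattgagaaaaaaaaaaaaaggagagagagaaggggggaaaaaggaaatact

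The Dusp1 sequence held 1 full CRE, whose first base lay 143 bases before the start, and a further CRE core 191 bases before it. The full CRE contains the core on both strands, and these overlapping matches are counted within it. The full CRE was found in 508 of 32851 upstream sequences of the same length (1.55%) and the core in 5836 (17.8%). The Dusp5 sequence held 2 adjacent CArG boxes, starting 82 and 72 bases before the start, and a CRE core 55 bases before it. A CArG box was found in 482 of the 32851 sequences (1.47%). AP-1 sites were found in 2217 (6.75%) and in none of the 7 members. Dusp2, Dusp6, Dusp10, Spry1 and Spry2 held no match to any of these letters in this window. A match describes letters and not a bound site.

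After filtering, 16532 cells remained (5662 liver, 5384 spleen and 5486 lymph node) of 16587 barcodes, and between 6 and 20 barcodes were shared by any pair of libraries. Over all barcodes, totals ran from 4768016 to 11086603 unique molecular identifiers (UMIs) per library, and after filtering the median UMIs per cell were 3592 and 2880 for liver, 1724 and 1554 for spleen, and 1730.5 and 1470 for lymph node. Levels below are in CPM, a gene's UMIs scaled to the same total in every library, after ribosomal, ribosomal RNA and haemoglobin genes were left out. T cell genes summed to 5274 to 6390 CPM (4 of the 6 listed genes were in the files), while the list of 2 CD8 genes summed to 2.49 to 7.12 CPM, 4 B cell genes to 2.53 to 16.2 CPM and 5 hepatocyte genes to 1.66 to 4.07 CPM, with Alb at 0 in spleen and lymph node. A list of 5 myeloid genes summed to 199 to 361 CPM, and 5 erythroid genes to 560 and 871 CPM in liver and at most 0.281 CPM in the other 4 libraries. Xist was at 0 in both lymph node libraries and at 1412 to 1648 CPM in the others, and Ddx3y, on the Y chromosome, was at 184 and 207 CPM in lymph node and at 0 elsewhere. Lymph node therefore differs from the other organs in the sex chromosome genes as well, and in every comparison with lymph node the organ and the sex of the mice cannot be told apart.

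Dusp1, Dusp4, Dusp5, Dusp10, Spry1 and Spry2 were highest in lymph node, Dusp2 was similar in lymph node and liver, and Dusp6 was lowest in lymph node. In a fit over all genes (edgeR quasi-likelihood, Benjamini-Hochberg adjusted p below 0.05), 6 members were higher and 1 was lower in lymph node than in spleen, beside 18.3% of the 10173 genes tested (10.3% higher, 7.99% lower). Against liver, 5 were higher in lymph node and 1 lower, beside 37.6% of all genes (19.6% higher, 18.0% lower). Between liver and spleen, 3 were higher in liver and 2 in spleen, beside 25.8% of all genes (12.7% and 13.0%). Since these contrasts chose the members, nothing is read from the counts, and the organs' libraries are shared between the 3 contrasts. All 8 members passed the filter on low counts. Dusp4 and Spry1 passed it only through the lymph node libraries, where they were highest, so their calls are not independent of that filter. Dusp4, among the 3 higher in liver than in spleen, had 8 and 2 UMIs in liver, 0 in spleen and 46 and 27 in lymph node. That call was lost with no filter on cells and without the cells of highest UMIs. The median log2 fold of the members was 0.89 for lymph node over spleen, 1.30 for lymph node over liver and 0.06 for liver over spleen, against -0.0047, -0.0072 and 0.019 over all genes.

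**Figure D1:**
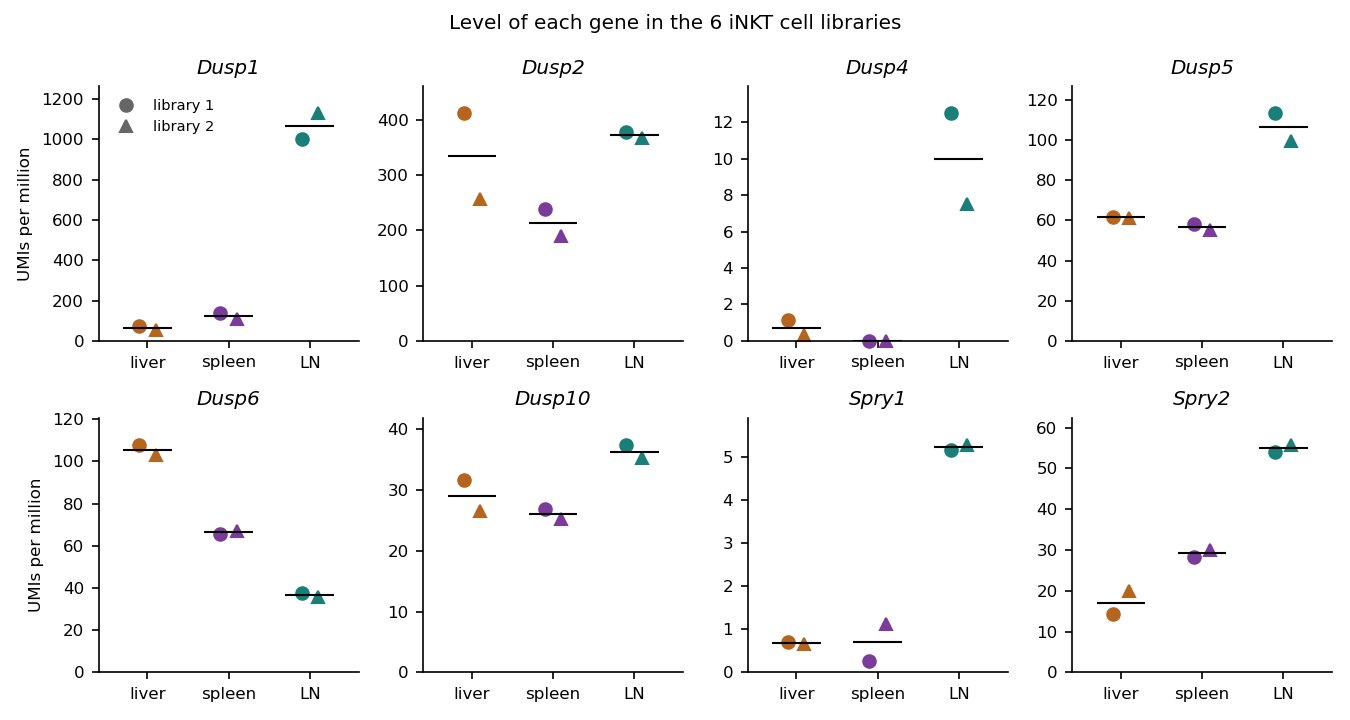
Level of each of the 8 genes in each library, in CPM on a linear axis from 0 that differs between panels. Each point is 1 library and the line is the mean of the 2 libraries of an organ (LN, lymph node); Dusp6 falls from liver to lymph node, whereas Dusp1 stands at over 1000 in both lymph node libraries and under 150 in the others.

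**Figure D2:**
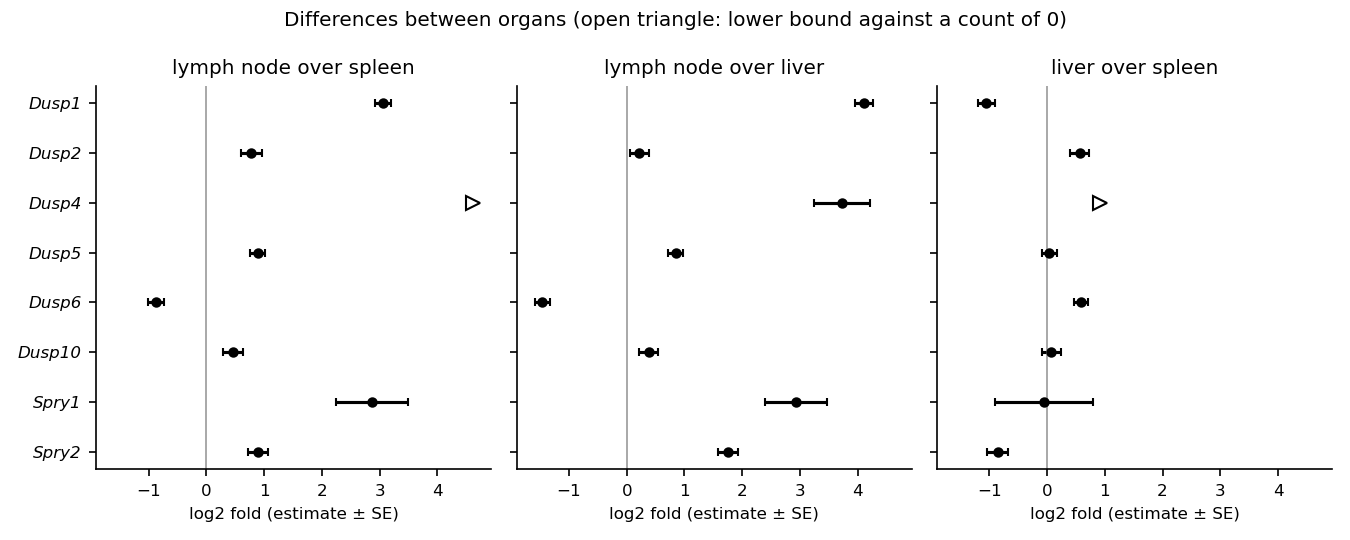
Fitted log2 fold (± SE) of each gene in the 3 contrasts between organs, on a shared axis. Open triangles are lower bounds for Dusp4, which had 0 UMIs in spleen; Dusp6 is the gene left of 0 in both lymph node contrasts.

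Dusp1 (ENSMUSG00000024190, chromosome 17, 26505590 to 26562128, GRCm38), an early-response nuclear phosphatase, stood at 1001 and 1129 CPM in the lymph node libraries, 141 and 111 CPM in spleen and 75.5 and 53.0 CPM in liver. The 3 organs did not overlap, and lymph node lay far above the others. The fitted log2 fold was 3.06 ± 0.14 (SE) for lymph node over spleen, 4.11 ± 0.15 for lymph node over liver and -1.05 ± 0.15 for liver over spleen. Dusp1 supplied 61.1% and 65.1% of all UMIs of the 8 members in lymph node, 25.2% and 23.2% in spleen and 10.7% and 10.2% in liver, a share of UMIs in which genes captured more efficiently at the 3′ end weigh more. The gene model spans Gm8225 and the start of Ergic1 on the opposite strand, and these had 86 and 680 UMIs in all, against 7754 UMIs of Dusp1 in lymph node alone.

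More cells carried Dusp1, and each carried more of it. To compare shares of cells at an equal total, every cell was thinned to 1000 UMIs of all genes, and between 0 and 488 shallower cells per library were left out. The ribosomal and other genes kept out of CPM took 35.4% and 33.0% of the liver UMIs, 29.5% and 29.0% of those from spleen and 28.2% and 24.2% of those from lymph node, so the depth on the remaining genes was not fully equal. After thinning, a Dusp1 UMI was found in 46.2% and 49.2% of lymph node cells, 9.71% and 7.88% of spleen cells and 4.61% and 3.75% of liver cells. The Wilson 95% intervals, which cover counting error alone, were 44.2% to 48.2% and 47.1% to 51.2% in lymph node and reached at most 10.9% elsewhere. Without thinning the shares were 63.0% and 62.1%, 17.1% and 13.0%, and 16.1% and 10.3%. Cells with Dusp1 held 2.22 and 2.30 UMIs of it on average in lymph node, with up to 20 in a cell, against 1.09 to 1.18 in the other 4 libraries. No cell type known to lack these genes was sorted, so a share due to free RNA was not measured.

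Clusters were used to ask whether the organ differences held within like cells. The cells of all libraries were clustered with the members kept out, and 8 clusters or classes had at least 20 cells in each library, 6 of them named from markers and 2 left as clusters. Dusp1 was higher in both lymph node libraries than in both spleen and both liver libraries in all 8, by 7.16 to 12.9 times over spleen and 6.62 to 26.9 times over liver. In iNKT17-like cells, with Ccr6, Il17re and Il23r among their leading genes, it stood at 836 and 905 CPM in lymph node, 88.5 and 155 CPM in spleen and 190 and 73.0 CPM in liver. The iNKT1-like cells were named from a list with Tbx21 and receptors of natural killer cells. The median log2 fold of that list was only 0.20 in cluster 1 and 0.77 in cluster 2. In iNKT1-like cells the lymph node libraries had 1092 and 1129 CPM of Dusp1, the spleen libraries 171 and 135 CPM and the liver libraries 79.7 and 61.9 CPM. Most iNKT1-like cells of liver and of spleen came from different clusters (clusters 2 and 1), and lymph node had 269 of them. The lowest lymph node values among the 8 were those of cycling-like cells, 587 and 486 CPM. Dusp1 was also among the 10 leading genes of cluster 3, a lymph node cluster left without a name, with 1245 and 1482 CPM there. That rank is over all other cells of every organ, and 94.2% of the cells of cluster 3 were from lymph node, so it includes the organ difference.

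**Figure D3:**
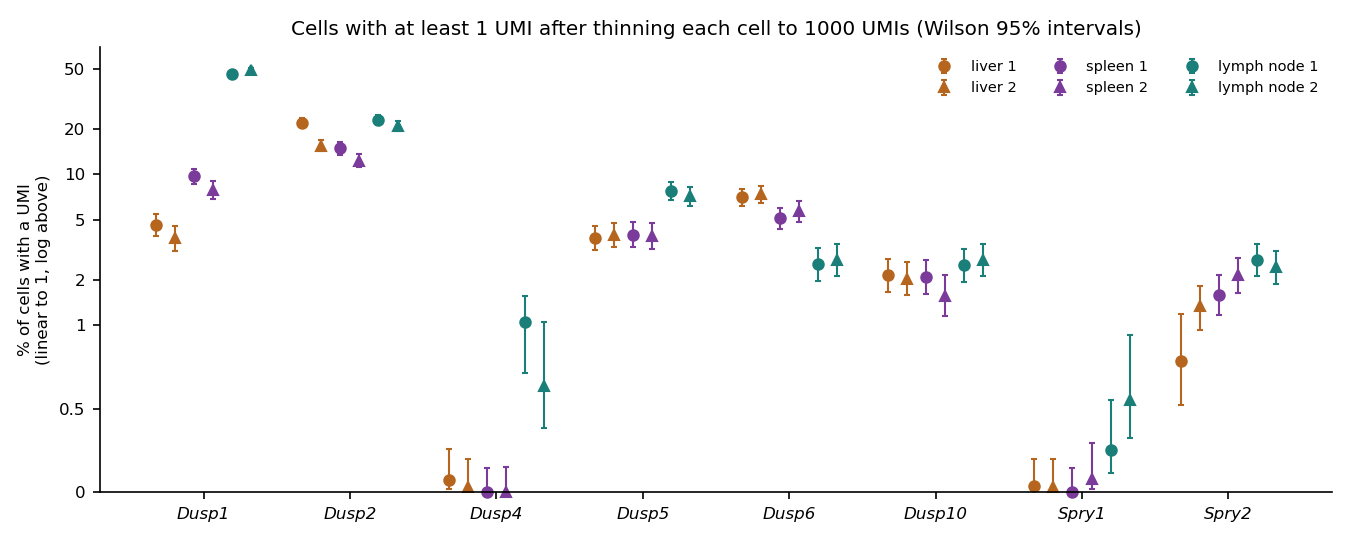
Percent of cells with at least 1 UMI of each gene after thinning each cell to 1000 UMIs, on an axis that is linear up to 1 and logarithmic above. Points are libraries and bars are Wilson 95% intervals for counting error; for Dusp1 the lymph node libraries reach 46.2% and 49.2%.

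Dusp2 (ENSMUSG00000027368, chromosome 2, 127336159 to 127338376), a nuclear phosphatase of activated lymphocytes, was at 377 and 366 CPM in lymph node, 411 and 256 CPM in liver and 238 and 189 CPM in spleen. The liver libraries lay on both sides of the lymph node ones, and both organs lay above spleen. The log2 fold was 0.78 ± 0.17 for lymph node over spleen, 0.56 ± 0.17 for liver over spleen and 0.22 ± 0.17 for lymph node over liver, the last smaller than the spread between the liver libraries. Without the first liver library the value was 0.22 for liver over spleen and 0.57 for lymph node over liver, and without the second they were 0.85 and -0.065.

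Dusp2 was low in iNKT17-like cells. Among the 6 named classes, iNKT17-like cells had the lowest Dusp2 level in all 6 libraries, at 94.7 and 92.7 CPM in lymph node, 66.4 and 34.4 CPM in spleen and 122 and 73.0 CPM in liver. iNKT1-like cells had 471 and 532 CPM, 246 and 193 CPM, and 440 and 252 CPM in the same organs. NF-kB-like cells, led by Irf8 and Bcl3, were the highest class in 5 of 6 libraries, with 640 and 913 CPM in lymph node (55 cells), 547 and 506 CPM in spleen and 504 and 380 CPM in liver. In lymph node, iNKT17-like cells were 34.3% of the cells and gave 9.27% of the Dusp2 UMIs, while cluster 3, led by Nrgn and Ccl1, was 44.9% of the cells and gave 67.2%. Clusters were defined on the same cells, so these class differences are a description.

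Dusp4 (ENSMUSG00000031530, chromosome 8, 34807297 to 34819894), another nuclear phosphatase, was rare and nearly absent outside lymph node. It had 46 and 27 UMIs (12.5 and 7.49 CPM) in lymph node, 8 and 2 UMIs (1.14 and 0.331 CPM) in liver and 0 in both spleen libraries. The organs did not overlap. Against a floor of 3 UMIs over the spleen group, the pooled lymph node level was at least 24.6-fold higher and the pooled liver level at least 1.88-fold higher. The liver bound rests mainly on the first liver library, since the second, at 0.331 CPM, lay below that floor (0.406 CPM). Lymph node over liver had a log2 fold of 3.73 ± 0.48, from 10 liver UMIs, and 4.82 or 3.18 on leaving out a liver library. In spleen, 0 of 5384 cells had a UMI, which allows a share of cells with a UMI of up to 0.0557% and sets no limit on cells that express the gene, and in lymph node 1.05% and 0.636% of thinned cells had one. Of the 73 lymph node UMIs, 49.3% were in iNKT17-like cells, which made up 34.3% of the cells, and 27.4% in cluster 3.

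Dusp5 (ENSMUSG00000034765, chromosome 19, 53529109 to 53542431), a nuclear phosphatase selective for ERK, was at 113 and 99.6 CPM in lymph node, 61.8 and 61.3 CPM in liver and 58.0 and 55.4 CPM in spleen. Lymph node lay above the other organs, which were close to each other. The log2 fold was 0.89 ± 0.13 for lymph node over spleen and 0.85 ± 0.13 for lymph node over liver, and 0.04 ± 0.13 for liver over spleen, less than its error. Within the 8 clusters and classes, both lymph node libraries were above both spleen libraries in 5 and above both liver libraries in 5, and the libraries overlapped in the other 3 of each. After thinning, 7.75% and 7.16% of lymph node cells had a UMI, against 3.78% to 3.98% in the other 4 libraries.

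Dusp6 (ENSMUSG00000019960, chromosome 10, 99263231 to 99267489), the cytoplasmic ERK phosphatase, ran the other way. It was at 108 and 103 CPM in liver, 65.6 and 66.9 CPM in spleen and 37.7 and 35.8 CPM in lymph node. The replicates were close and the organs did not overlap. The log2 fold was -0.87 ± 0.14 for lymph node over spleen, -1.46 ± 0.14 for lymph node over liver and 0.59 ± 0.13 for liver over spleen. After thinning, 7.03% and 7.36% of liver cells, 5.11% and 5.67% of spleen cells and 2.53% and 2.71% of lymph node cells had a UMI.

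Among the named classes, Dusp6 was highest in iNKT1-like cells outside lymph node. These cells were the highest of the named classes in all 4 liver and spleen libraries, at 136 and 133 CPM in liver and 97.2 and 98.0 CPM in spleen, and gave 72.3% and 82.2% of the Dusp6 UMIs of those organs. In lymph node they were 4.90% of the cells, against 58.2% in liver and 66.5% in spleen, and their level of 104 and 70.5 CPM there spanned that of spleen. iNKT17-like cells had 22.3 and 29.0 CPM in lymph node. Liver exceeded spleen without overlap in 7 of 8 clusters and classes and exceeded lymph node in 6, but lymph node was below spleen without overlap in only 3, above it in 2 and overlapped it in 3. The lymph node iNKT1-like value rests on 22 UMIs. Cluster 6, which has no name, ran from 104 to 144 CPM of Dusp6 over the liver libraries.

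Dusp10 (ENSMUSG00000039384, chromosome 1, 184013302 to 184075636), the JNK and p38 phosphatase, differed little between organs. It was at 37.5 and 35.2 CPM in lymph node, 31.6 and 26.5 CPM in liver and 26.9 and 25.3 CPM in spleen. Liver and spleen overlapped, and lymph node lay slightly above both. The log2 fold was 0.46 ± 0.17 for lymph node over spleen, 0.38 ± 0.16 for lymph node over liver and 0.08 ± 0.17 for liver over spleen. In recent thymic emigrant-like cells, marked by Ccr7 and Klf2, it was at 93.0 and 64.8 CPM in lymph node (37 UMIs), 29.1 and 24.7 CPM in spleen (49 UMIs) and 19.4 and 10.6 CPM in liver (8 UMIs). Of the lymph node cells of this class, 154 of 332 were in cluster 11, which held 7 spleen and 2 liver cells, so the class is not made of the same clusters in the organs. The gene model overlaps the antisense gene 1700056E22Rik, which had 220 UMIs in all.

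Of the Sprouty genes, Spry1 (ENSMUSG00000037211, chromosome 3, 37639947 to 37644598) was rare, with 19 and 19 UMIs (5.16 and 5.27 CPM) in lymph node, 1 and 4 (0.261 and 1.13 CPM) in spleen and 5 and 4 (0.712 and 0.663 CPM) in liver. Lymph node lay above both other organs, which overlapped each other. The log2 fold was 2.87 ± 0.62 for lymph node over spleen and 2.93 ± 0.54 for lymph node over liver. Leaving out a spleen library moved the first to 2.14 (without the first) or 4.19 (without the second). Of the 38 lymph node UMIs, 60.5% were in cluster 3.

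Spry2 (ENSMUSG00000022114, chromosome 14, 105891947 to 105896819) was at 54.0 and 55.8 CPM in lymph node, 28.2 and 30.1 CPM in spleen and 14.2 and 19.9 CPM in liver. The organs did not overlap. The log2 fold was 0.89 ± 0.17 for lymph node over spleen, 1.75 ± 0.17 for lymph node over liver and -0.86 ± 0.19 for liver over spleen. Its cells were few, with 2.70% and 2.42% of thinned cells in lymph node, 1.59% and 2.13% in spleen and 0.785% and 1.33% in liver, so the intervals of lymph node and spleen overlapped. A lymph node cell held up to 17 UMIs, and cells with Spry2 held 1.55 and 1.79 on average there.

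Spry2 was low in iNKT17-like cells and mostly found in cluster 3 in lymph node. In iNKT17-like cells it was at 6.93 and 6.52 CPM in lymph node and at 0 in all 4 spleen and liver libraries. Those zeros come from 86 spleen and 55 liver cells. Cycling-like cells were lower still in lymph node, at 4.08 to 4.44 CPM from 2 UMIs. Of the 400 lymph node UMIs, 78.5% were in cluster 3 and 4.50% in iNKT17-like cells, which made up 44.9% and 34.3% of the cells. Cluster 3 had 107 and 105 CPM in lymph node and, in 62 and 24 cells, 167 and 113 CPM in spleen. In cluster 3 lymph node was thus below spleen, from 314 and 15 UMIs. Over the 8 clusters and classes, lymph node was above spleen without overlap in 4, below it in 2 (cluster 3 and cycling-like cells, the latter from 2 and 6 UMIs) and overlapped it in 2. Among the 6 named classes with enough cells, NF-kB-like cells were the highest in all 6 libraries, at 236 and 196 CPM in lymph node (13 UMIs), 45.6 and 56.2 CPM in spleen and 14.6 and 39.1 CPM in liver. In cells of the Gzma-like cluster, which express Ly49 receptors, spleen had 129 and 142 CPM and liver 28.1 and 30.4 CPM. The second lymph node library had 519 CPM, from 14 UMIs in 27 cells, and the first had under 20 cells of this cluster.

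**Figure D4:**
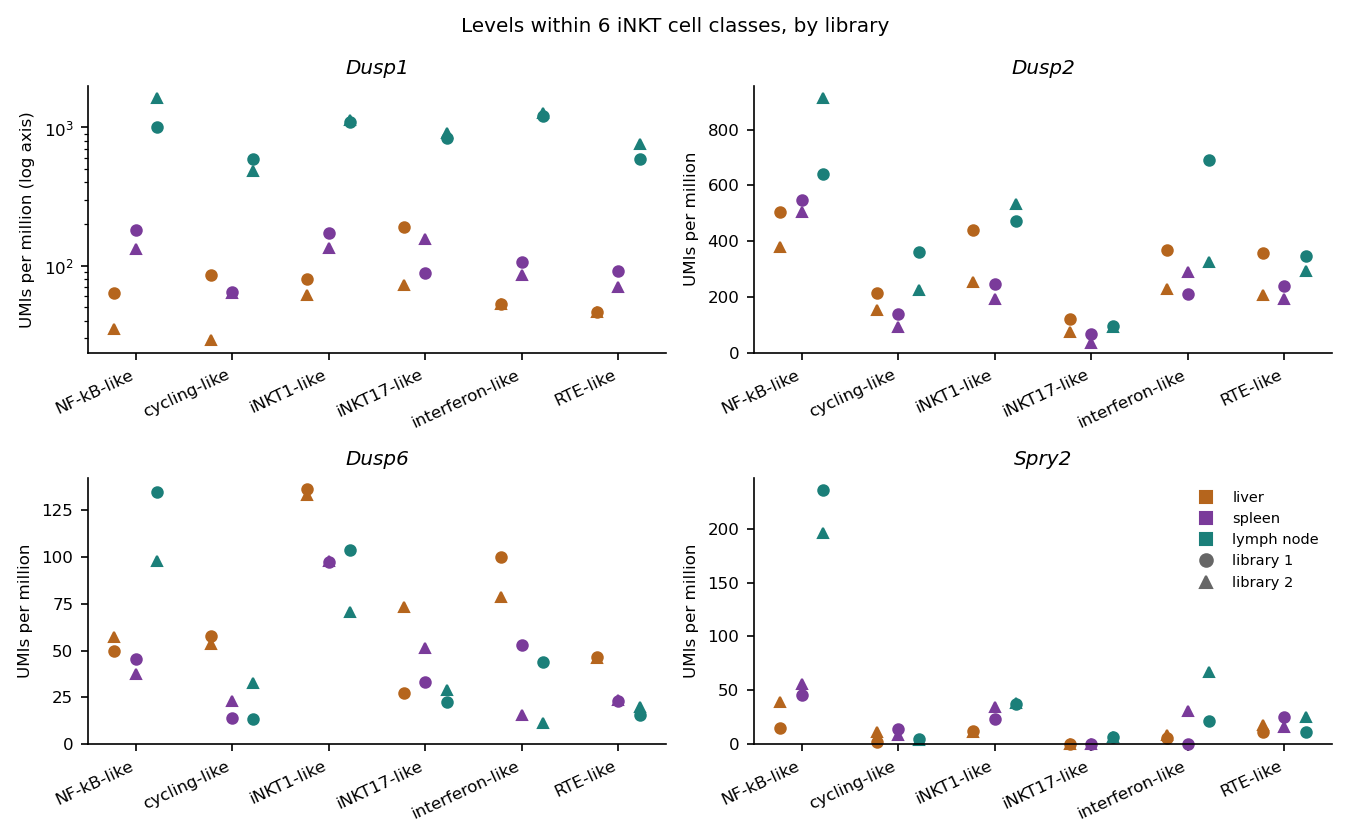
Level of Dusp1, Dusp2, Dusp6 and Spry2 within the 6 named classes, in CPM (logarithmic axis for Dusp1, linear from 0 for the others); each point is 1 library (RTE-like, recent thymic emigrant-like). Dusp1 is higher in lymph node in every class, Dusp2 is lowest in iNKT17-like cells of every library, and Spry2 is highest in NF-kB-like cells.

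To lessen the weight of the mix of cells, the level of each gene was averaged over the 6 named classes with equal weight. This leaves out cluster 3, which held 44.9% of lymph node cells, 52.0% of their Dusp1 UMIs and 67.2% of their Dusp2 UMIs. The iNKT1-like and recent thymic emigrant-like classes were also made of different clusters in the organs, so the mix was not made equal. Lymph node over spleen was then 8.56 for Dusp1, against 8.45 over all cells, and lymph node over liver was 14.1 against 16.6. For Spry2 the ratio of lymph node to spleen was 2.57 against 1.88, an average that leaves out cluster 3, where it was 0.756, and for Dusp5 it was 1.63 against 1.88. For Dusp2 lymph node over liver was 1.51 against 1.11, although the liver libraries still differed from each other (334 and 215 CPM). Its ratio of liver to spleen was 1.20 against 1.56, and the liver libraries then lay on both sides of those of spleen (241 and 218 CPM). That overlap depends on NF-kB-like cells. Without them the Dusp2 ratio was 1.42, with 182 to 300 CPM in liver and 160 to 180 CPM in spleen. For Dusp6, liver over lymph node fell to 1.45 from 2.86, and lymph node over spleen became 1.15 in place of 0.555. Both ratios depend on NF-kB-like cells, with 7 Dusp6 UMIs in lymph node, and without this class they were 2.08 and 0.837. Without it the ratio of lymph node to spleen was 1.46 for Spry2 and 8.60 for Dusp1. This weighting was chosen after the data were seen and is a description.

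The genes most alike to a member were ranked by Pearson's r of log2(CPM + 1) over the 6 libraries, among 5865 genes with a mean of at least 20 CPM. With 3 organs of 2 libraries such values are high for many genes, and they are a description. For Dusp1 they were Sdc1, Fos and Ppm1k (r = 0.999, 0.998 and 0.998). For Dusp5 they were Rgs2, S100a4 and Tmem189 (0.998, 0.998 and 0.996), and for Dusp6 Rhoc, Gimap3 and Ppm1j (0.999, 0.997 and 0.997). For Spry2 they were Agpat5, Tktl1 and Slc25a36 (1.00, 0.998 and 0.996). Dusp2 was most like Cerk, Stt3b and Gabbr1 (0.989, 0.984 and 0.982), and Dusp10 most like Faah, Pnrc1 and Cflar (0.995, 0.985 and 0.985). Dusp4, with few UMIs, was most like Abi1, Plk3 and Rnf4 (0.994, 0.993 and 0.992).

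More lymph node cells than cells of the other organs held several members at once. Dusp1 alone was found in 46.2% and 49.2% of thinned lymph node cells, and the members were chosen by their organ differences. The shares below would thus be larger in lymph node even if the genes occurred in cells independently of each other. After thinning, at least 1 member was found in 61.4% and 63.3% of lymph node cells, against 29.3% to 35.5% of cells in the other libraries. At least 2 members were found in 20.6% and 19.6% of lymph node cells against 3.54% to 4.82%, and at least 3 members in 3.75% and 2.92% against 0.175% to 0.282%. In lymph node a Dusp1 UMI was found in 50.4% and 57.7% of cells with a Fos UMI and in 44.5% and 45.1% of cells without one. The odds ratio of Dusp1 and Dusp2 in the same cell ran from 0.898 to 1.59 over the 6 libraries, on both sides of 1. Counts per cell were sparse, and these values were not tested.

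Other genes of the pathway were tested gene by gene and are counted by list, with no test of a list. The lists were chosen with earlier results of these data known, so their counts and adjusted p-values are a description. The list counts between liver and spleen stand beside 25.8% of all genes called (12.7% higher in liver, 13.0% higher in spleen). Of 21 other dual-specificity phosphatases, 13 passed the filter, and in lymph node over spleen 1 was higher, 0 lower and 12 not called, with a median log2 fold of 0.01, beside 18.3% of all genes called. The gene called was Dusp16, a JNK and p38 phosphatase, with 4.34 and 5.83 CPM in lymph node and 0.523 and 1.13 CPM in spleen (log2 fold 2.58 ± 0.59, edgeR adjusted p 0.00159). It was not called without the second lymph node library. Against liver 4 were higher and 2 lower, with a median of 0.26, beside 37.6% of all genes called. Dusp16 (1.77 ± 0.46, edgeR adjusted p 0.00236) and Dusp12 (0.87 ± 0.17, edgeR adjusted p 0.000146) rose, and Dusp7, a cytoplasmic ERK phosphatase in the group of Dusp6, fell (-1.50 ± 0.22, edgeR adjusted p 1.38e-06). Without the second lymph node library 3 were called. Between liver and spleen 1 was higher, Dusp7 (1.05 ± 0.21, edgeR adjusted p 0.000325), and 1 lower, Ssh2 (-0.56 ± 0.14, edgeR adjusted p 0.00441), so Dusp7 was higher in liver than in both other organs. Without the first spleen library 1 was called.

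Of 17 other Sprouty, Spred and Ras brake genes, 12 were tested. In lymph node 0 were higher and 2 lower than in spleen (median log2 fold -0.30), beside 7.99% of all genes lower, namely Rasal1, a Ras GTPase-activating protein (-1.48 ± 0.51, edgeR adjusted p 0.0409), and the adaptor Dok2 (-0.43 ± 0.12, edgeR adjusted p 0.00678). No gene of this list was called without the first spleen library or without either lymph node library, and 1 was called without either liver library. Against liver 0 were higher and 7 lower (median -0.43), beside 18.0% of all genes lower (4 called with DESeq2), among them Rasal1 (-1.49 ± 0.47, edgeR adjusted p 0.0131), Spred2 (-1.19 ± 0.27, edgeR adjusted p 0.000636) and the ubiquitin ligase Cblb (-0.98 ± 0.17, edgeR adjusted p 1.53e-05). Between liver and spleen 3 were higher and 1 lower, with Cblb at 0.80 ± 0.16 (edgeR adjusted p 0.000475).

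Of the 20 genes for Ras activation and the kinases from RAF to ERK, all tested, 4 were higher and 3 lower in lymph node than in spleen (median -0.11), and 3 were higher and 4 lower than in liver (median 0.02). The 7 called in each were 35.0% of the list, beside 18.3% of all genes against spleen and 37.6% against liver, so against liver the share was near that of all genes. Between liver and spleen 3 were higher and 1 lower (median 0.15), 20.0% of the list and thus no larger a share than that of all genes. The adaptor Grb2 rose over spleen (1.29 ± 0.13, edgeR adjusted p 9.40e-10) and Sos1, its partner exchange factor, fell (-0.91 ± 0.28, edgeR adjusted p 0.0215). Among the genes called against liver, Plcg1 fell (-1.12 ± 0.17, edgeR adjusted p 2.18e-06). The 7 calls against spleen became 2 or 3 without either lymph node library or either spleen library, and the 7 against liver became 4 without the first liver or the second lymph node library.

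Of 22 genes for JNK and p38 kinases and their activators, 20 were tested, with 6 higher and 1 lower against spleen (median 0.28) and 7 higher and 2 lower against liver (median -0.0020), beside 18.3% and 37.6% of all genes called. Between liver and spleen 4 were higher and 3 lower (median 0.06), and 4 or 3 were called without the first or the second spleen library. Gadd45b, an activator of MAP3K4, stood at 159 and 123 CPM in lymph node, 14.1 and 12.1 CPM in spleen and 34.5 and 41.1 CPM in liver (3.40 ± 0.18 over spleen, edgeR adjusted p 5.04e-16). Gadd45g rose over spleen as well (1.08 ± 0.18, edgeR adjusted p 3.89e-05). Mapk10, which encodes a JNK, had 25 UMIs in lymph node, 1 in spleen and 3 in liver, a ratio of 25.3 over spleen with a counting interval of 4.15 to 1040. Without the second lymph node library 4 genes of the list were called against spleen.

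The immediate early genes, which are transcribed rapidly after a stimulus, were mostly higher in lymph node. Of 22, 20 were tested, and 18 were higher in lymph node than in spleen with 0 lower, at a median log2 fold of 1.73, beside 10.3% of all genes higher. Against liver 17 were higher and 1 lower (median 1.84), beside 19.6% of all genes higher. Fos stood at 561 and 586 CPM in lymph node, 26.4 and 22.2 CPM in spleen and 13.1 and 8.45 CPM in liver (4.54 ± 0.15 over spleen, edgeR adjusted p 8.85e-22). Fosb rose over spleen by 4.69 ± 0.26 (edgeR adjusted p 1.04e-15). Atf3 had 80 UMIs in lymph node and 0 in spleen and was at least 27.0-fold higher against a floor of 3 UMIs over the spleen group. Nr4a2 had 88 UMIs in lymph node and 1 in liver. Between liver and spleen 1 was higher and 7 lower in liver (median -0.12), with Fos at -1.24 ± 0.19 (edgeR adjusted p 1.06e-05) and Junb at -0.92 ± 0.13 (edgeR adjusted p 3.28e-06). Without the first spleen library 4 were called in that contrast.

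**Figure D5:**
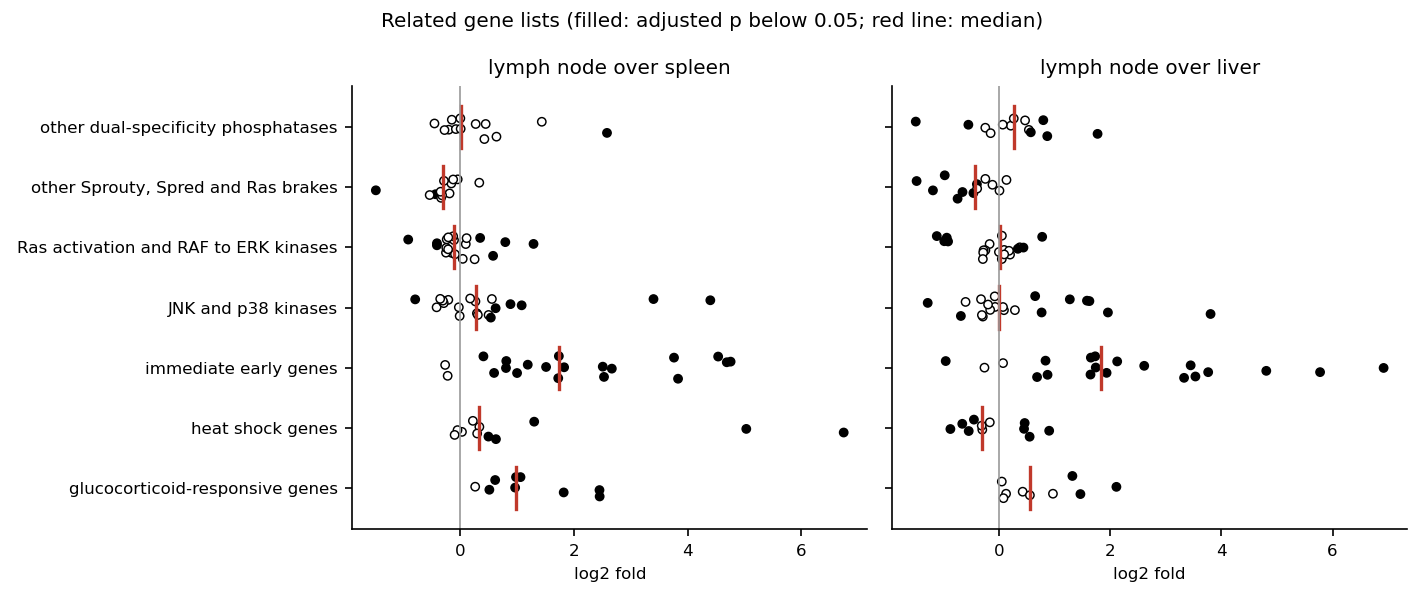
Fitted log2 fold of each tested gene of the related lists for lymph node over spleen and lymph node over liver, with filled points for an edgeR adjusted p below 0.05, open points otherwise, and a red line at the list's median. Atf3 is drawn at its lower bound against spleen; most immediate early genes lie to the right of 0 (18 called higher over spleen, 17 over liver, medians 1.73 and 1.84), while the other phosphatases have medians of 0.01 and 0.26.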

How the data were processed

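Single-cell 3′ libraries (10x Genomics Chromium v2) of iNKT cells were processed by the authors with Cell Ranger 3.1.0 and mm10. Seurat is also named in the submitters' processing notes. The deposited matrices hold raw UMI counts per gene and barcode with no normalization, and the accompanying deposited lists give other values, the names of genes and barcodes. The annotation version was not given in the sources used here, and the labels call the molecule nuclear RNA. Positions were taken from GENCODE vM21 by Ensembl identifier.

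Barcodes with under 300 or over 4000 genes or over 15% mitochondrial UMIs were removed, and no doublets were removed beyond that. UMIs were summed per library and compared in R 4.3.3 by edgeR 4.0.16 (TMM, a filterByExpr minimum count of 10, robust glmQLFit, glmQLFTest, all 6 libraries in 1 fit, organ as the only term), at an adjusted p below 0.05. The p-values measure the spread between these libraries. Replicates differed by more than sampling noise (chi-square per degree of freedom 3.23 to 6.53). The edgeR step was tested on simulated data.

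Clustering used scanpy 1.11.5 and leidenalg 0.10.2 (3000 variable genes, 20 principal components, 20 neighbours, resolution 0.5) without 49 member, immediate early, heat shock and sex-linked genes. It gave 13 clusters. A cluster took a name when its markers had a median log2 fold of at least 1 with 3 of them 2-fold up, and iNKT1-like when that class's median was above 0. These thresholds were set with the clusters in view, and the names need not match those of the study. Members, lists and alternatives were chosen with earlier results of these data known. Named genes are the 8 members, up to 3 called genes with the largest fold per list and contrast, and the 3 most alike genes per member. Those of Spry1 are not reported here. Alternatives were another cell filter, leaving out the 2% of cells with most UMIs, other gene filters, RLE, DESeq2 1.42.0, thinning, a replicate block, leaving out each library, unthinned shares and other clusterings.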

Additional observations from a re-analysis of the deposited data

Results flagged for a closer look

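A few organ differences of the members ran in opposite directions in different classes or clusters with at least 20 cells in each library, with both libraries of an organ beyond both of the other and more than 3 UMIs in each organ. The difference between the classes was not tested in any of these. The level of Dusp2 in liver relative to spleen was 1.43 in cluster 3, 1.59 in cycling-like, 1.58 in iNKT1-like and 1.94 in iNKT17-like cells but 0.840 in NF-kB-like cells. Dusp6 in lymph node relative to spleen was 2.80 in NF-kB-like cells, from 7 and 6 UMIs, and 1.20 in cluster 3, from 142 and 4 UMIs, but 0.605 in iNKT17-like and 0.761 in recent thymic emigrant-like cells. Relative to liver, lymph node Dusp6 was 2.17 in NF-kB-like cells but 0.633 in cluster 3, 0.413 in cycling-like, 0.647 in iNKT1-like, 0.306 in interferon response-like and 0.382 in recent thymic emigrant-like cells. Dusp10 in lymph node relative to spleen was 2.93 in recent thymic emigrant-like cells, from 37 and 49 UMIs, but 0.741 in iNKT1-like cells, where lymph node had 5 UMIs. Relative to liver the same classes had 5.25 and 0.749. Spry2 in lymph node relative to spleen was 4.24 in NF-kB-like cells, from 13 and 7 UMIs, 2.70 in cluster 6, from 12 and 4 UMIs, and 1.31 in iNKT1-like cells but 0.756 in cluster 3.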

How the results depend on the processing

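The number of genes called in lymph node over spleen was 1865, and 1126 with DESeq2. In liver over spleen it was 2621, and 1424 with DESeq2. In lymph node over liver it was 3829, and the alternatives that kept every library stayed within 1.5 times of it. Leaving out each library in turn gave 1029 to 1934 genes for lymph node over spleen, 2420 to 4034 for lymph node over liver and 1373 to 2418 for liver over spleen, with fewer libraries in the fit. No member changed direction under any alternative where its fold was called. Of 336 member folds recomputed, 37 moved by more than the spread between replicates, those with every library kept being folds of Dusp4, Dusp5, Dusp6 and Spry1. For Spry1, leaving out the cells with most UMIs gave 3.32 for lymph node over liver and -0.60 for liver over spleen. The number of members called ran from 6 to 8 for lymph node over spleen, 6 to 7 for lymph node over liver and 2 to 5 for liver over spleen. Of 294 list counts 31 moved by over 1.5 times, and of 432 class levels 52 moved by more than 1 SD. Shares of cells moved without thinning in 22 of 24 cases. With the replicate block the counts were 2114, 4139 and 3034, and 7 members in place of 6 were called in lymph node over liver, Dusp10 being added. Same-numbered libraries deviated together with correlations of 0.122, 0.180 and 0.113 between organs, but with 2 numbers per organ, and labels that give only a number, they were not taken to pair the libraries. Depth limits Dusp4 and Spry1, with at most 46 UMIs in a library.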

Other observations

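Further lists, also chosen with earlier results of these data known, were examined beside the members. Of 12 heat shock genes 11 were tested, and 5 were higher in lymph node than in spleen, 8 were higher in liver than in spleen and 0 were lower in either contrast, while lymph node over liver had 4 higher and 4 lower. Over all genes, 10.3% were higher in lymph node than in spleen, 12.7% higher in liver than in spleen, and 37.6% called in either direction in lymph node over liver. Hspa1a, an inducible chaperone, had 342 UMIs in lymph node, 465 in liver and 3 in spleen, a ratio of 87.6 for liver over spleen with a counting interval of 29.8 to 427. For Hspa1b the counts were 289 and 255 for liver, 143 and 92 for lymph node and 7 and 0 for spleen, and as near-identical copies the genes could share reads, so both values are uncertain. Without the second lymph node library 4 were called against liver.

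Of 10 glucocorticoid-responsive genes 9 were tested, and 8 were higher in lymph node than in spleen (median log2 fold 0.98), 3 rose in lymph node over liver, and in liver over spleen 3 rose and 1 fell, or 2 were called in all without the first liver library. The 8 over spleen stand beside 10.3% of all genes higher in lymph node. The 3 over liver were 33.3% of the list, near the 37.6% called over all genes, while 5 were called with the replicate block. Liver over spleen stands beside 25.8% of all genes called. Per1, a clock gene, rose over spleen by 1.82 ± 0.24 (edgeR adjusted p 6.40e-07), and Klf9 by 2.45 ± 0.34 (edgeR adjusted p 1.14e-05). Tsc22d3 stood at 96.1 and 195 CPM in lymph node and 26.1 and 26.2 CPM in spleen. Without the second spleen library 5 were called over spleen.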
